A study of Mus musculus with 9 samples.

Results

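A set of genes that handle fatty acids and related lipids was followed in lung endothelial cells across 3 ages, by the stretches of open chromatin listed at each gene. The genes are Cd36, Lpl, Fabp4, Fabp5, Pparg, Meox2, Tcf15, Pdk4, Acadm and Hpgd, which is 10 of the 21887 protein-coding genes in the annotation used. They were chosen by name for their roles, with earlier results of these data known. A peak was given to the gene whose body holds the peak's centre or, outside gene bodies, to whichever gene end was closest, up to 100 kb away. All 10 had a mean of at least 1 peak per library, the minimum for a test. Overlapping peaks of the 9 libraries were merged into 126907 regions, of which 152 belonged to these genes.

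The data are ATAC-seq peak lists, in which a transposase marks accessible DNA, from endothelial cells sorted out of mouse lung. Infant, young adult and mature adult mice gave 3 libraries each, and the study's title places the ages along a passage from growing to resting vessels. The labels give neither strain, sex nor age in days, name no treatment, and leave unsaid whether different animals were used for the libraries of 1 age. The p-values therefore measure the spread between these libraries, which may be technical.

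Fatty acids reach tissue from the blood across the endothelium. Lipoprotein lipase frees them from triglyceride-rich particles at the vessel wall, the receptor CD36 takes them up, and small fatty acid binding proteins carry them through the cytoplasm. In endothelial cells the transcription factors PPARγ and the Meox2 and Tcf15 pair are known to drive uptake genes, with the pair best described in heart and muscle capillaries. Inside the cell, fatty acids are stored, passed on or burned in mitochondria, while the enzyme encoded by Hpgd breaks down prostaglandins, signalling lipids that the lung clears from the circulation.

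The lists held 88856 to 94646 peaks in infant libraries, 67550 to 68366 in young adult libraries and 59793 to 64208 in mature adult libraries. They carry positions only, so the depth of sequencing is unknown, and a region with no listed peak is not shown to be closed. Peaks were narrower on average in 2 libraries, young adult replicate 3 (487 bp) and mature adult replicate 1 (495 bp), than in the other adult libraries (530 to 541 bp). Endothelial markers had peaks in all libraries, and their summed number over 6 genes (Pecam1, Cdh5, Kdr, Erg, Tek and Emcn) was 157 to 167 in infant, 138 to 152 in young adult and 128 to 148 in mature adult libraries. Of 6 fibroblast markers, 3 fell in mature adult and 5 in young adult against infant libraries, beside 13.9% and 9.25% of all genes, and their summed number was 61 to 66 in infant, 21 to 26 in young adult and 19 to 20 in mature adult libraries. The part of such other cells in the results was not tested, and in bulk samples fewer cells of a type and less signal per cell cannot be told apart.

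Because adult lists were shorter, 3 views of a gene's peak number are given: scaled to the list total, unscaled, and counted among the 59793 widest peaks of each library, so that all lists have equal length. A gene is said to have risen or fallen where it passed an adjusted p of 0.05 in the same direction on scaled and unscaled numbers (limma, Benjamini-Hochberg over 14510 genes). Scaling alone places unchanged genes higher in adults: 2394 of the 4411 genes called higher on scaled numbers in mature adult against infant libraries had the same peak number in all 6 libraries. Equal length has its own limit, since the narrowest peak kept was 299 to 354 bp wide in infant, 175 to 205 bp in young adult and 150 to 162 bp in mature adult libraries. A peak wider than 205 bp and narrower than 299 bp was thus kept in every adult library and in no infant library.

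The DNA around the start of 6 of the 10 genes was in the RefSeq promoter windows used (Cd36, Pparg, Meox2, Pdk4, Acadm and Hpgd; 250 bases before to 50 after the start, GRCm38.p6). The windows below are those of the genes whose start regions the results return to, each read 5′ to 3′ on the gene's own strand. Capitals mark matches, on either strand, to AGGTCA (a nuclear receptor site), CAGCTG or CATCTG (E-boxes, bound by factors of the Tcf15 type), TAATTA (homeodomain core, the Meox2 type), CCGGAA (ETS), TGTTTAC (forkhead), AACAAT (Sox), TATAAA and CCAAT.
Cd36, chr5:17835847-17836146, minus strand: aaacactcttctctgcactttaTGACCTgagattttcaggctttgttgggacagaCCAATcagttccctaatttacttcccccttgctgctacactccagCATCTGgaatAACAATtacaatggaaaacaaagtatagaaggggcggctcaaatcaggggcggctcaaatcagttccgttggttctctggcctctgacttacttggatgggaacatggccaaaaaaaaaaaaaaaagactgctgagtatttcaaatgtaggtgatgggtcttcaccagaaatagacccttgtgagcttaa
Hpgd, chr8:56294302-56294601, plus strand: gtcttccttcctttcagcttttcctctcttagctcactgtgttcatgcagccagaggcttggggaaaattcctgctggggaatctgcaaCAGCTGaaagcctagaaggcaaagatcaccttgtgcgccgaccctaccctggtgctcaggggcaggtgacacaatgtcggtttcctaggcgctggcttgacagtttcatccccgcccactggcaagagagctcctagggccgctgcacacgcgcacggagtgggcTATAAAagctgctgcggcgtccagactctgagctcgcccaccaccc
Meox2, chr12:37108290-37108589, plus strand: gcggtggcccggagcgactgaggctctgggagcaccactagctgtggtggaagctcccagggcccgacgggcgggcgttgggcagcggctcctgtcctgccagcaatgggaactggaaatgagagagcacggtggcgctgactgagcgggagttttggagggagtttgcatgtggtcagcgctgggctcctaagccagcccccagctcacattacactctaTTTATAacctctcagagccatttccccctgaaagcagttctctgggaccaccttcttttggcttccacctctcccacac
Pparg, upstream start, chr6:115360894-115361193, plus strand: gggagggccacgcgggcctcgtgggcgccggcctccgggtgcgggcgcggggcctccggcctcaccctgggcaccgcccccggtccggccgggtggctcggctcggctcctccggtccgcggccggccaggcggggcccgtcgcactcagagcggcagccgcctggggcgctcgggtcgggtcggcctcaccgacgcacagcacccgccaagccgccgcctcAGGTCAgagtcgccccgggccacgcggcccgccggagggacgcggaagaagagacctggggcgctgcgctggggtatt
Pparg, next start, chr6:115362099-115362398, plus strand: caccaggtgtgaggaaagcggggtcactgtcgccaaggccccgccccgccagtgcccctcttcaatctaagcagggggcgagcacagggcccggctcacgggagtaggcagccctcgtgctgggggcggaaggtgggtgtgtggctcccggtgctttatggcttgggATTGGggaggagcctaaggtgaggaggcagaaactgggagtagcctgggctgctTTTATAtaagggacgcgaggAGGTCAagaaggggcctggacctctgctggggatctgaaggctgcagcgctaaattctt

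Cd36 held 1 nuclear receptor site (positions 23 to 28 from the 5′ end), a CATCTG E-box (101 to 106), a Sox match (111 to 116) and a CCAAT box (56 to 60). Hpgd held a CAGCTG E-box (90 to 95) and a TATAAA match (255 to 260). Both Pparg windows shown held 1 AGGTCA each, at 223 to 228 and at 242 to 247. Among all 32817 windows, 16.3% held AGGTCA, 16.3% CAGCTG, 17.2% CATCTG, 10.7% the Sox letters, 13.6% TATAAA and 37.4% CCAAT, so each of these matches is common. TAATTA (5.30% of windows), CCGGAA (14.9%) and TGTTTAC (3.65%) matched none of the 8 windows of these genes. DR1, the PPAR and RXR element made of AGGTCA repeated in the same direction with 1 base between, which overlaps the single site, matched 0.0396% of windows and none of the 8. A peak covered part of the window in all 9 libraries at Cd36, Hpgd, Meox2, Pdk4 and Acadm, as in 36.8% of all windows. At the upstream Pparg start 8 libraries had one, all but young adult replicate 3, at the next start 4 had one, and at a more distant start none had.

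Cd36, the fatty acid receptor, lies at chr5:17781690-17888959 (all positions are mm10). It had the most regions of the 10 genes, 53 in a stretch of 170 kb that is closer to it than to any other gene, or 31.2 per 100 kb; over all genes the median was 2 regions and 46.6 kb. Of the 53 regions, 18 (34.0%) were listed in a single library, against 24.4% of all regions, and 11 (20.8%) in all 9, against 32.4%. Cd36 peaks numbered 18, 17 and 24 in infant, 26, 30 and 29 in young adult, and 18, 27 and 32 in mature adult libraries. The young adult libraries lay above all infant libraries, while mature adult replicate 1 lay among the infants. On scaled numbers Cd36 was higher in mature adult than in infant libraries by 0.89 ± 0.21 (log2, SE; limma adjusted p = 0.0111), but by 0.35 ± 0.23 unscaled (adjusted p = 0.308). Among equal lists it had 18, 24 and 32 peaks in mature adult against 12, 11 and 14 in infant libraries, a change of 0.94 (adjusted p = 0.0296). That adjusted p lay between 0.0107 and 0.0969 when each library was left out in turn. It exceeded 0.05 without each of infant replicates 1, 2 and 3 (0.0911, 0.0969 and 0.0520), young adult replicate 2 (0.0501) and mature adult replicate 2 (0.0824), and the change stayed between 0.74 and 1.14. At chr5:17849446-17849987, listed in all 9 libraries, equal lists dropped the infant peaks (276 to 320 bp). There they kept a peak in each mature adult library (329 to 536 bp in sum). The part of this width limit in the Cd36 change was not tested.

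The Cd36 regions did not move alike. The region over the start window, chr5:17835638-17836740 inside the gene body, was 1064 to 1096 bp wide in infant, 950 to 1066 bp in young adult and 844 to 1056 bp in mature adult libraries. The widest, chr5:17923713-17924887 and 35341 bp beyond the higher-coordinate end, was 1126 to 1168 bp, 1121 to 1157 bp and 1099 to 1136 bp wide at the 3 ages. By contrast chr5:17886295-17887053, inside the gene body 2285 bp from its upstream end, was 590, 685 and 741 bp wide in infant, 379, 339 and 343 bp in young adult, and 339, 332 and 365 bp in mature adult libraries. No adult library reached the narrowest infant one.

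This narrowing came to -0.68 ± 0.14 (log2 width centred on the library median, SE; limma adjusted p = 0.0178) in mature adult against infant libraries and -0.96 (adjusted p = 0.00299) without centring. In young adult against infant libraries it was -0.72 ± 0.14 (adjusted p = 0.0255). Without infant replicate 2 or 3 the adjusted p in mature adult against infant libraries was 0.0631 or 0.0543, where all 9 left-out fits ran from 0.0176 to 0.0631. In young adult against infant libraries it was lost without infant replicates 2 and 3 and young adult replicates 1 and 2, with adjusted p of 0.0903, 0.0840, 0.0621 and 0.0713, and with both mature adult replicate 1 and young adult replicate 3, the narrow-peaked lists, left out it was 0.0537. Another 2 regions ran the other way and were listed in all 6 adult and in no infant library. One, chr5:17893810-17894199, lies 5045 bp upstream of the gene body and was 259, 381 and 287 bp wide in young adult and 150, 224 and 246 bp in mature adult libraries. The other, chr5:17847709-17847930 inside the gene body, was 150 to 216 bp wide, where 150 bp is the narrowest width in the lists. There were 871 regions listed in all adult and no infant libraries, with a median of 344 bp. By median adult width the upstream region was wider than 16.4% of them and the inner one than 0.574%.

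Cd36 also had a region 2975 bp past its lower-coordinate end, chr5:17778348-17779082, that was absent from the infant lists, 520, 623 and 429 bp wide in young adult, and 499 and 216 bp wide in mature adult replicates 2 and 3. It was named after its values were seen, and mature adult replicate 1 had no peak there. Regions at chr5:17849446-17849987, chr5:17882991-17883954 and the widest region named above passed the width test as wider in mature adult libraries with centring only. Their changes were 0.70, 0.29 and 0.25 with centring (adjusted p = 0.0309, 0.0281 and 0.0345) and 0.43, 0.017 and -0.030 without (adjusted p = 0.152, 0.746 and 0.553). The reverse held inside the gene body at chr5:17843214-17844215, which was 805, 884 and 929 bp wide in infant, 413, 776 and 543 bp in young adult, and 447, 452 and 523 bp in mature adult libraries. It was narrower without centring only, at -0.88 (adjusted p = 0.0256) against -0.61 with centring (adjusted p = 0.0620) in mature adult against infant libraries.

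Lpl, lipoprotein lipase, lies at chr8:68880555-68906932 and had 11 regions. It had 5, 7 and 4 peaks in infant, 7, 8 and 7 in young adult, and 9, 7 and 8 in mature adult libraries. The adult libraries reached or passed the highest infant library. Its scaled change in mature adult against infant libraries was 1.07 ± 0.19 (limma adjusted p = 0.00298) and its unscaled change 0.57 ± 0.19 (adjusted p = 0.0682). With equal lists, all 3 infant libraries had 4 peaks, against 9, 6 and 8 in mature adult libraries (0.84 ± 0.14, adjusted p = 0.0108).

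The region over the Lpl body's lower-coordinate end, chr8:68880278-68882031, was the gene's widest at 1419 to 1669 bp in infant, 1045 to 1679 bp in young adult and 1039 to 1468 bp in mature adult libraries. What the adults added lay elsewhere. A region 55241 bp beyond the higher-coordinate end, chr8:68961929-68962417, was listed in no infant library and was 406, 260 and 393 bp wide in young adult and 353, 339 and 468 bp in mature adult libraries. Of the 11 Lpl regions, 4 were listed in no infant and in 4 to 6 adult libraries, or 36.4%, against 1.73% of all regions.

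Fabp4 and Fabp5, which encode fatty acid binding proteins, lie 188 kb apart on chromosome 3, at chr3:10204342-10208616 and chr3:10012585-10016610. Fabp4 had 4, 4 and 3 peaks in infant, 1, 3 and 2 in young adult, and 0, 2 and 0 in mature adult libraries. Only mature adult replicate 2 had any at that age, and it stayed below the infants. The change in mature adult against infant libraries was -1.96 ± 0.68 scaled (limma adjusted p = 0.0505), -2.28 ± 0.68 unscaled (adjusted p = 0.0449) and -1.96 ± 0.48 with equal lists (adjusted p = 0.0401), and these fitted values depend on the added 0.5 where libraries stand at 0. Leaving out mature adult replicate 2 gave a scaled change of -2.81 and an adjusted p of 0.000925. With equal lists the call held in 1 of the 9 fits that left out 1 library, the one without mature adult replicate 2 (adjusted p = 0.0046), and was lost without any one of the other 8, where the adjusted p ran up to 0.123.

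No Fabp4 region was listed in all 9 libraries. The region 3139 bp beyond the gene's higher-coordinate end, chr3:10211454-10212056, was 602, 556 and 558 bp wide in infant libraries, 172 bp in young adult replicate 2, and not listed in the other 5 adult libraries. The widest by median, chr3:10213704-10214179, was 393, 424 and 331 bp in infant, 361, 475 and 370 bp in young adult libraries, and 312 bp in mature adult replicate 2, the one mature adult library with a peak there. Over the gene's own higher-coordinate end a peak was listed in infant replicate 1 (176 bp), young adult replicate 2 (615 bp) and mature adult replicate 2 (160 bp).

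Fabp5 stood in contrast. Its peaks numbered 9, 9 and 8 in infant, 8, 9 and 9 in young adult, and 7, 8 and 9 in mature adult libraries, so the ages overlapped fully. The scaled change in mature adult against infant libraries was 0.40 ± 0.09 (limma adjusted p = 0.00815), the unscaled one -0.11 ± 0.10 (adjusted p = 0.449). Equal lists gave 7, 7 and 8 peaks in mature adult against 5 in each infant library (0.51 ± 0.06, adjusted p = 0.00338). Here chr3:10009432-10009701 and chr3:10059734-10060036, listed in all 9 libraries, were 251 to 265 bp wide in infant and 202 to 261 bp in mature adult libraries. Equal lists dropped them from the infant libraries and kept them in the mature adult ones. Counting each deposited row, repeats included, the scaled Fabp5 change was 0.15 and the adjusted p 0.501. Of its 12 regions, 7 were listed in all 9 libraries. The widest, chr3:10012200-10013344 over the lower-coordinate end, was 1133, 1141 and 1086 bp in infant, 846, 923 and 860 bp in young adult, and 837, 609 and 648 bp in mature adult libraries, with no overlap between infants and adults. It narrowed without centring only, by -0.70 in mature adult against infant libraries (adjusted p = 0.00714), against -0.42 with centring (adjusted p = 0.0689).

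**Figure D1:**
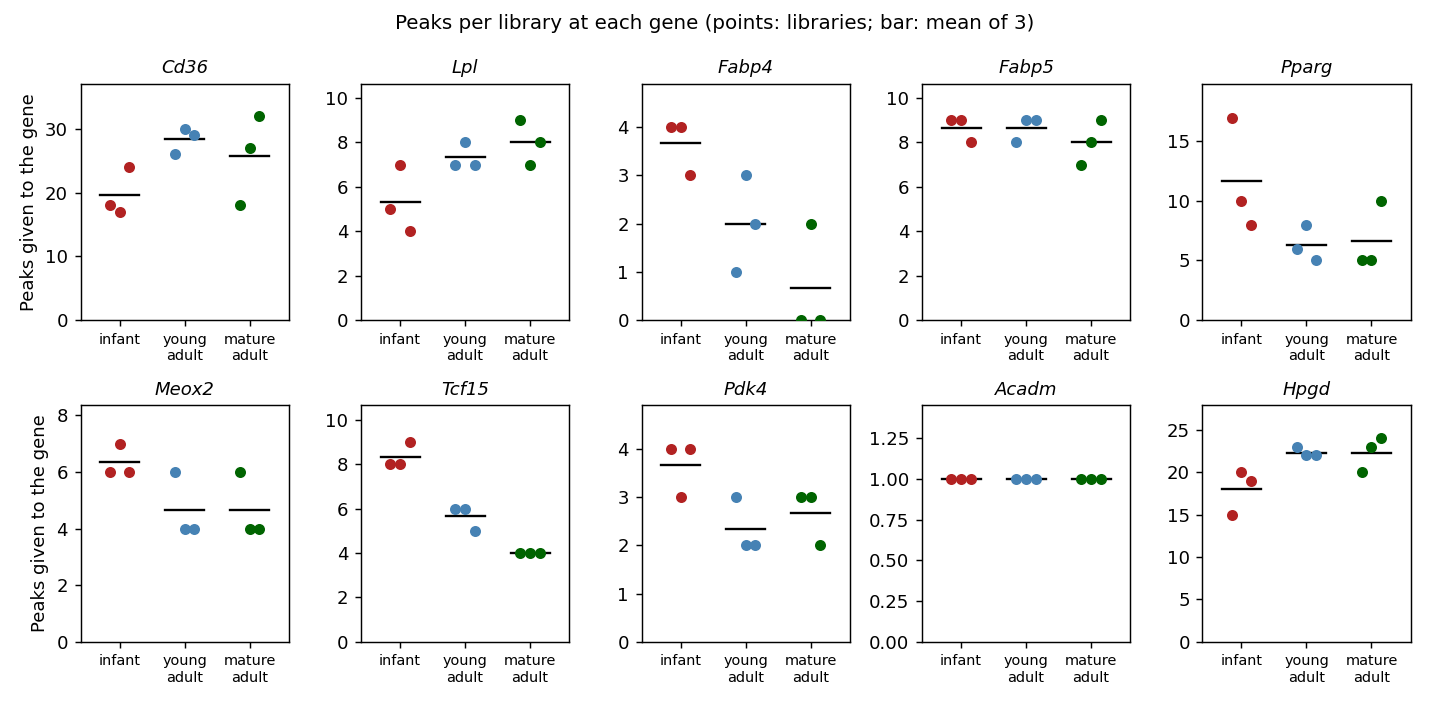
Number of listed peaks given to each of the 10 genes (vertical axis, from 0) in each library (points) at each age, with the mean of 3 libraries as a bar. Tcf15 ran from 8 or 9 peaks in infant to 4 in mature adult libraries, Acadm stayed at 1, and the adult Cd36 values ran from 18 to 32.

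The regulators came next. Pparg, the gene of PPARγ, the nuclear receptor that governs fat storage and uptake, lies at chr6:115360879-115490404 and had 18 regions. It had 17, 10 and 8 peaks in infant, 6, 8 and 5 in young adult, and 5, 5 and 10 in mature adult libraries. Infant replicate 1 stood far above the others, and the ages overlapped. The change in mature adult against infant libraries was -0.25 ± 0.34 scaled (limma adjusted p = 0.589) and -0.77 ± 0.37 unscaled (adjusted p = 0.176), and it was 0.018 scaled without infant replicate 1.

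Single Pparg regions were clearer than the gene's total. The region chr6:115469734-115470215 inside the gene was 481, 370 and 395 bp wide in infant libraries and listed in no adult library. Another, chr6:115411278-115411904, was 626, 538 and 609 bp in infant libraries, absent from all young adult lists, and 160 bp in mature adult replicate 3 alone among mature adults. The widest by median, chr6:115462881-115463794, was 744, 756 and 913 bp in infant, 900, 799 and 757 bp in young adult, and 771, 735 and 756 bp in mature adult libraries. The start region, chr6:115360846-115362425, which holds both printed windows, was 1410, 1428 and 844 bp wide in infant, 493 and 1579 bp in young adult replicates 1 and 2, and 242, 933 and 924 bp in mature adult libraries. Young adult replicate 3 had no peak there, and the ages overlapped.

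A region 10866 bp past the downstream end of Pparg, chr6:115500934-115501606, widened with age. It was 493, 348 and 350 bp in infant, 630, 620 and 560 bp in young adult, and 607, 637 and 662 bp in mature adult libraries, all adults above all infants. The change in mature adult against infant libraries was 0.97 ± 0.13 with centring (log2, SE; limma adjusted p = 0.00387) and 0.70 without (adjusted p = 0.0167). In young adult against infant libraries it was 0.82 ± 0.13 (adjusted p = 0.0124) and 0.62 (adjusted p = 0.0435). With centring it passed in all 9 fits that left out 1 library, in both comparisons.

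Meox2, a homeodomain factor, lies at chr12:37108540-37179534 and had 9 regions. Its peaks numbered 6, 7 and 6 in infant, 6, 4 and 4 in young adult, and 6, 4 and 4 in mature adult libraries. In each adult group 1 library equalled the infants. The change in mature adult against infant libraries was 0.079 ± 0.22 scaled (limma adjusted p = 0.784) and -0.42 ± 0.20 unscaled (adjusted p = 0.172). Its start region, chr12:37108153-37109772, over the window printed above, was 1419, 1385 and 1572 bp wide in infant, 1368, 1560 and 667 bp in young adult, and 324, 1262 and 699 bp in mature adult libraries. The lowest values were those of young adult replicate 3 and mature adult replicates 1 and 3, the first 2 being the libraries with narrow peaks throughout. A region 35767 bp before the start, chr12:37072552-37072994, was 383, 435 and 392 bp in infant libraries, 150 bp in young adult replicate 1 and absent from the other adult lists. Farther out, chr12:37050480-37051139 was 626, 569 and 658 bp in infant, 572, 484 and 513 bp in young adult, and 444, 414 and 516 bp in mature adult libraries. It was narrower in mature adult against infant libraries without centring only, at -0.44 (limma adjusted p = 0.0390) against -0.16 with centring (adjusted p = 0.410).

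Tcf15, a basic helix-loop-helix factor that acts as the partner of Meox2, lies at chr2:152143056-152149097 and gave the plainest change of the 10. It had 8, 8 and 9 peaks in infant, 6, 6 and 5 in young adult, and 4, 4 and 4 in mature adult libraries. The 3 ages did not overlap on these unscaled numbers, while scaled numbers of infant (6.24 to 7.48) and young adult libraries (5.46 to 6.53) did. In mature adult against infant libraries 13.9% of all genes fell. Tcf15 fell in mature adult against infant libraries, with changes of -0.47 ± 0.09 scaled (limma adjusted p = 0.00539), -0.97 ± 0.08 unscaled (adjusted p = 0.000222) and -0.74 ± 0.14 with equal lists (adjusted p = 0.0164). On scaled numbers it passed in all 9 fits that left out 1 library, with adjusted p up to 0.0198. With equal lists 5 of those 9 lost it, with an adjusted p of 0.0552, 0.0552 and 0.0516 without infant replicates 1, 2 and 3 and 0.0512 and 0.0532 without mature adult replicates 2 and 3. In young adult against infant libraries the change was -0.13 ± 0.09 scaled (adjusted p = 0.351) and -0.52 ± 0.08 unscaled (adjusted p = 0.00533).

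Of the 9 Tcf15 regions, 4 were listed at every age and the loss was in the rest. The broad region chr2:152155307-152156838, 6975 bp beyond the higher-coordinate end, was 1419, 1447 and 1391 bp wide in infant libraries and was not listed in any adult library. Among the 12315 regions listed in all infant and no adult libraries, 13 were at least as wide by median, this one included, and the median of all was 341 bp. A region 1346 bp beyond the same end, chr2:152150014-152150872, was 806, 858 and 461 bp in infant and 218, 413 and 150 bp in young adult libraries, and was not listed in mature adult libraries. The third, chr2:152132565-152133165, 10191 bp past the lower-coordinate end, was 424, 600 and 428 bp in infant libraries and was not listed in any adult library.

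The regions that stayed at Tcf15 included chr2:152141495-152142493, 1062 bp past the lower-coordinate end and the gene's widest by median, at 933, 908 and 939 bp in infant, 897, 901 and 614 bp in young adult, and 837, 835 and 964 bp in mature adult libraries. The region over the lower-coordinate end, chr2:152142845-152144157, was 856, 1075 and 681 bp in infant, 1083, 766 and 569 bp in young adult, and 369, 383 and 607 bp in mature adult libraries. Mature adults were below all infants there, young adults overlapped them, and the width test made no call (limma adjusted p = 0.0803 with and 0.0559 without centring in mature adult against infant libraries).

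The genes whose scaled peak numbers followed Tcf15 most closely over the 9 libraries were Prr5, Pmepa1 and Fgfr1, with Pearson r of 0.94, 0.93 and 0.93 among 3802 genes with a mean of at least 5 peaks. Those closest to Meox2 were Commd3, Plcg1 and Mb21d2, with r of 0.92, 0.88 and 0.84. These are descriptions over libraries that share their scaling and age.

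**Figure D2:**
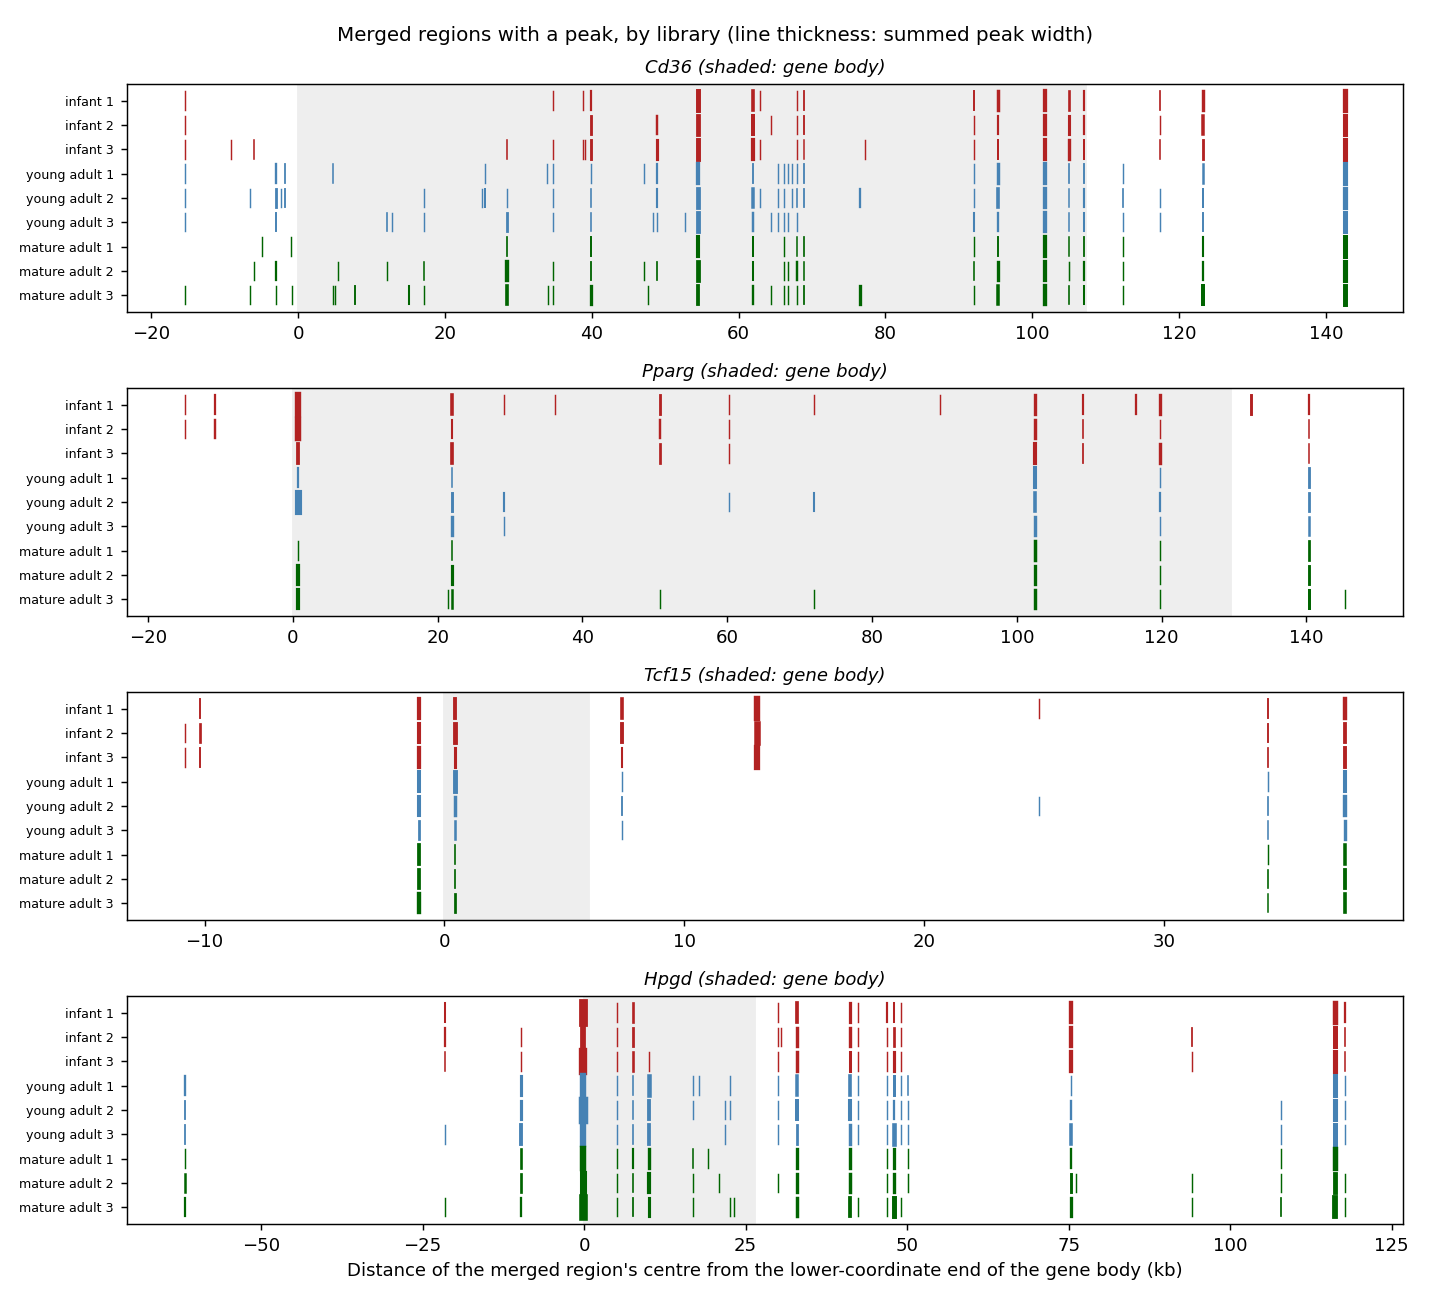
Merged regions with a peak at Cd36, Pparg, Tcf15 and Hpgd in each library (rows, infant at the top, then young adult and mature adult), by distance in kb from the lower-coordinate end of the gene body (horizontal axis, shaded body); thicker lines are wider. At Tcf15 the broad infant region just beyond 10 kb is absent from all 6 adult lists, and at Hpgd the adult region at about 10 kb inside the gene is listed in 1 infant library alone.

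The mitochondrial members had few peaks. Pdk4, a kinase that turns pyruvate dehydrogenase off and so favours fat as fuel, lies at chr6:5483351-5496278. It had 4, 3 and 4 peaks in infant, 3, 2 and 2 in young adult, and 3, 3 and 2 in mature adult libraries. The ages overlapped. The change in mature adult against infant libraries was 0.068 ± 0.20 scaled (limma adjusted p = 0.803) and -0.40 ± 0.20 unscaled (adjusted p = 0.191). Its start region, chr6:5495958-5497068, was 1110, 986 and 1055 bp wide in infant, 885, 952 and 920 bp in young adult, and 801, 764 and 680 bp in mature adult libraries, in an order without overlap. In mature adult against infant libraries its width change was -0.49 without centring (adjusted p = 0.00618) and -0.22 with centring (adjusted p = 0.165), so it passed the width test without centring only.

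Acadm, the medium-chain acyl-CoA dehydrogenase of mitochondrial fat oxidation, lies at chr3:153922353-153944643 and had 1 peak in every library, over its start. That region, chr3:153943907-153945097, was 1058 to 1190 bp wide in infant, 1058 to 1149 bp in young adult and 1038 to 1131 bp in mature adult libraries. The ages overlapped. Its scaled change of 0.36 ± 0.04 in mature adult against infant libraries (limma adjusted p = 0.000121) comes wholly from the scaling, since the unscaled change was 0.

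Hpgd, 15-hydroxyprostaglandin dehydrogenase, lies at chr8:56294552-56321046 and had 29 regions, fewer only than Cd36 among the 10. Its peaks numbered 15, 20 and 19 in infant, 23, 22 and 22 in young adult, and 20, 23 and 24 in mature adult libraries. All young adults lay above all infants, and mature adult replicate 1 equalled the highest infant. The change in mature adult against infant libraries was 0.84 ± 0.12 scaled (limma adjusted p = 0.000903) and 0.31 ± 0.12 unscaled (adjusted p = 0.0955). With equal lists Hpgd had 20, 21 and 22 peaks in mature adult against 11, 12 and 10 in infant libraries (0.91 ± 0.10, adjusted p = 0.00149), and it passed in all 9 fits that left out 1 library. Equal lists took infant libraries down from 15, 20 and 19 peaks, and mature adult libraries from 20, 23 and 24. At chr8:56299486-56299753, listed in all 9 libraries, they dropped the infant peaks (158 to 175 bp) and kept the mature adult peaks (221 to 262 bp). They also dropped every infant peak at chr8:56324471-56324791 (259 to 290 bp), chr8:56336796-56337083 (206 to 287 bp) and chr8:56343513-56343784 (243 to 271 bp). The part of this width limit in the Hpgd change was not tested. Young adult libraries had 17, 20 and 21 among equal lists (0.78 ± 0.10 against infant libraries, adjusted p = 0.00361).

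The clearest adult region of the 10 genes lay inside Hpgd, 10019 bp from its start. At chr8:56304039-56305104, peaks were 1007, 852 and 840 bp wide in young adult and 745, 924 and 688 bp in mature adult libraries, against a single 150 bp peak in infant replicate 3, 150 bp being the narrowest width in the lists. The narrowest adult peak there exceeded the widest infant one by at least 500 bp, which held for 0.0512% of all regions and for 1 of these 152. The reverse, infants above adults by as much, held for 1.55% of all regions and for 1 of the 152, the broad Tcf15 region. Both margins were chosen after the values were seen.

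Before the Hpgd start, chr8:56232454-56233044, at 61803 bp, was listed in no infant library and was 515, 408 and 399 bp wide in young adult and 305, 558 and 490 bp in mature adult libraries. Closer in, chr8:56284389-56285309, at 9703 bp, was 233 and 150 bp in infant replicates 2 and 3 and absent from infant replicate 1, against 690, 696 and 859 bp in young adult and 586, 597 and 504 bp in mature adult libraries. Adults again lay above all infants. The start region itself, chr8:56293331-56295534, the widest of the gene, was 1950, 1283 and 1851 bp in infant, 1419, 2101 and 1408 bp in young adult, and 1426, 1565 and 1904 bp in mature adult libraries, with full overlap.

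A narrow region inside Hpgd, chr8:56299486-56299753, was 175, 170 and 158 bp wide in infant, 188, 245 and 211 bp in young adult, and 256, 262 and 221 bp in mature adult libraries. Mature adults lay above all infants. It widened in mature adult against infant libraries by 0.83 ± 0.15 with centring (log2, SE; limma adjusted p = 0.0101) and 0.55 without (adjusted p = 0.0214), and passed in all 9 fits that left out 1 library. Regions at chr8:56335190-56336094 and chr8:56410103-56411456, past the downstream end, passed with centring only, at 0.42 and 0.32 (adjusted p = 0.0128 and 0.0381) against 0.14 and 0.045 without (adjusted p = 0.232 and 0.644).

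Other Hpgd regions ran the other way. Inside the gene body, chr8:56301749-56302364 was 590, 615 and 579 bp wide in infant, 363, 361 and 371 bp in young adult, and 481, 365 and 390 bp in mature adult libraries, all adults below all infants. It passed without centring only, at -0.54 in mature adult against infant libraries and -0.70 in young adult against infant libraries (limma adjusted p = 0.0201 and 0.0145). With centring these changes were -0.26 and -0.50 (adjusted p = 0.261 and 0.104). Past the downstream end, chr8:56369479-56370497 was 966, 959 and 948 bp in infant, 272, 519 and 793 bp in young adult, and 515, 644 and 726 bp in mature adult libraries. Adults again lay below all infants, and it passed neither with centring (adjusted p = 0.482 in mature adult and 0.181 in young adult against infant libraries) nor without (0.215 and 0.120). This last region was named after its values were seen.

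**Figure D3:**
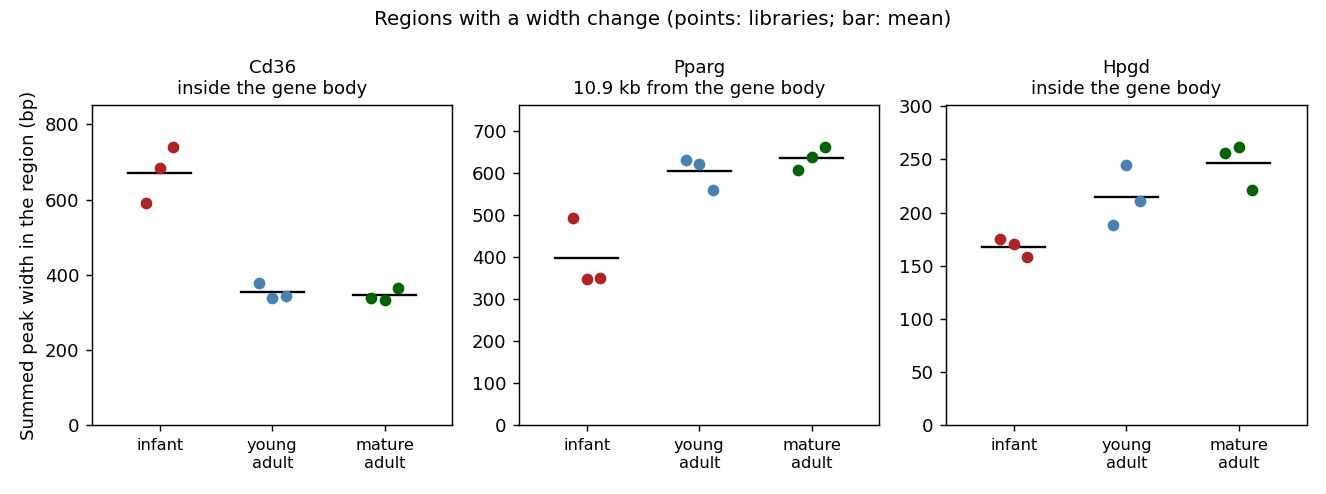
Summed peak width in bp (vertical axis, from 0) at the 3 regions that changed width with and without centring in mature adult against infant libraries; points are libraries at each age and bars their means. The Cd36 region was 332 to 365 bp in mature adult and 590 to 741 bp in infant libraries, the Pparg region 607 to 662 bp in mature adult and 348 to 493 bp in infant libraries, and the Hpgd region 221 to 262 bp in mature adult and 158 to 175 bp in infant libraries.

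Over the 10 genes, 5 were called higher (Cd36, Lpl, Fabp5, Acadm and Hpgd) and 1 lower (Tcf15) on scaled numbers in mature adult against infant libraries, beside 30.4% and 13.9% of all genes tested. On scaled and unscaled numbers together none of the 10 rose, beside 1.42% of genes and with 2 of the 10 higher at unadjusted p under 0.05, and Tcf15 alone fell, beside 13.9%. With equal lists 4 were higher (Cd36, Lpl, Fabp5 and Hpgd) and 2 lower (Fabp4 and Tcf15), beside 8.96% and 7.78% of 13688 genes. Their median scaled change was 0.22, beside 0.14 over all genes, and their median unscaled change -0.26, beside -0.31.

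In young adult against infant libraries, 5 of the 10 (Cd36, Lpl, Fabp5, Acadm and Hpgd) were higher and none lower on scaled numbers, beside 26.1% and 9.33% of genes. None rose or fell on both scales, beside 1.1% and 9.25%, with 1 higher and 0 lower at an unadjusted p under 0.05. With equal lists Cd36, Fabp5 and Hpgd were higher and none was lower, beside 6.05% and 4.17%. Cd36 then had 21, 25 and 24 peaks in young adult against 12, 11 and 14 in infant libraries (0.90 ± 0.21, limma adjusted p = 0.0444), and it kept the call in 2 of 9 fits that left out 1 library, with adjusted p from 0.0185 to 0.136. The 7 libraries whose omission lost it were infant replicates 1, 2 and 3, young adult replicates 1, 2 and 3, and mature adult replicate 2. In mature adult against young adult libraries none of the 10 was called in either direction on scaled numbers, beside 0.937% of genes, although at an unadjusted p under 0.05 Acadm was higher and Tcf15 lower. The 3 comparisons share libraries and are not independent.

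**Figure D4:**
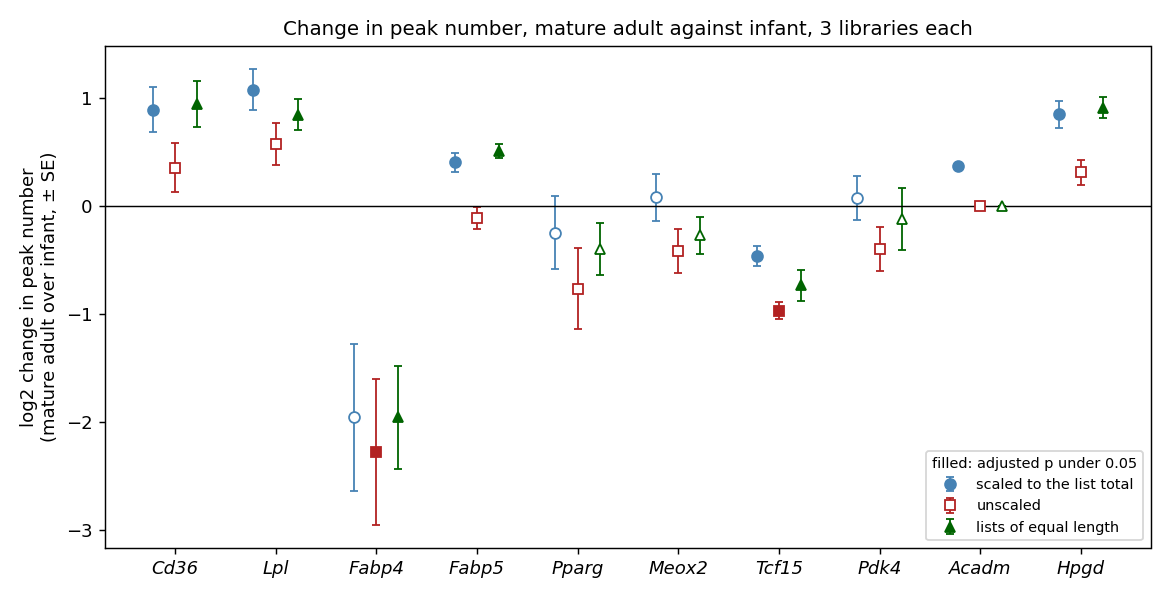
Change in peak number in mature adult against infant libraries (log2, vertical axis) for each gene on scaled numbers, unscaled numbers and lists of equal length; bars are standard errors, and filled symbols passed an adjusted p of 0.05. Tcf15 is filled and below 0 on all 3 views, while Cd36, Lpl and Hpgd are filled above 0 on 2 of them and open on unscaled numbers.

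Counted by region, 3 of the 152 regions were listed in all infant and no adult libraries (2 at Tcf15, 1 at Pparg), or 1.97%, against 9.7% of all regions. In all 6 adult and no infant libraries there were 4 (2 at Cd36, 1 each at Lpl and Hpgd), or 2.63%, against 0.686%. A further 45, or 29.6%, were listed in all 9 libraries, against 32.4%, and 40 in a single library. With a looser rule, 13 regions, or 8.55%, had no infant and at least 4 adult libraries, against 1.73% of all regions, and they belonged to Cd36 (5), Lpl (4) and Hpgd (4). With 2 or 3 infant and no adult libraries there were 10, or 6.58%, against 16.3%. As the genes were chosen with results known, these shares are descriptions without a test.

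The direction of width calls turned on centring. At the 45 regions listed in all libraries, 7 were wider and 1 narrower with centring in mature adult against infant libraries, beside 14% and 6.83% of 41144 such regions, while 2 were wider and 6 narrower without it, beside 1.92% and 16.4%. Between young adult and infant libraries 2 were wider and 1 narrower in young adults with centring, beside 3.1% and 2.1%, and 1 wider and 2 narrower without it, beside 1.12% and 5.8%. Both with and without centring, 2 were wider and 1 narrower in mature adult against infant libraries, beside 1.92% and 6.81% of such regions, and in young adult against infant libraries 1 was wider and 1 narrower, beside 1.12% and 2.09%. In mature adult against young adult libraries none was called on centred widths, beside 0.126%, with 1 wider and 1 narrower at an unadjusted p under 0.05. Inside gene bodies lay 75 of the 152 regions, or 49.3%, against 64.7% of regions at all other genes. Of all regions, which include those given to no gene, 57.0% lay inside. Within 1 kb of a gene end lay 12, or 7.89%, against 13.6% at all other genes.

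**Figure D5:**
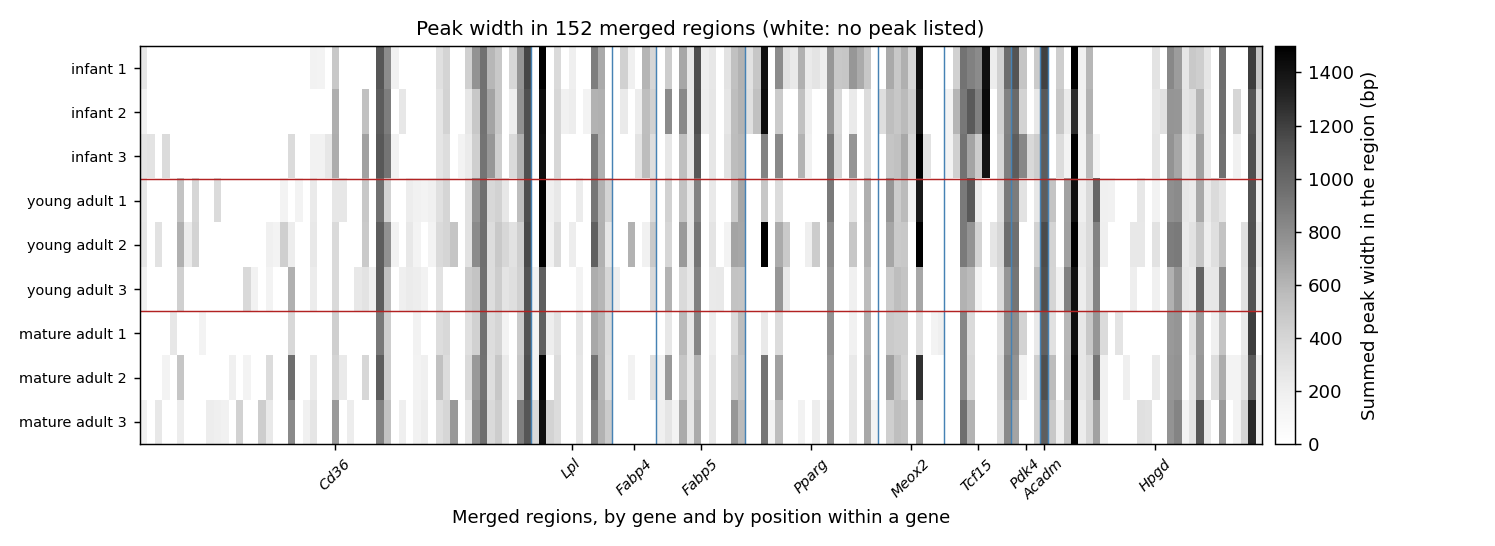
Summed peak width in each of the 152 merged regions (columns, ordered by gene and position, blue lines between genes) in each library (rows, red lines between ages), white where no peak is listed and black at 1500 bp or more. Cd36 and Hpgd hold columns filled in adult libraries alone, and Tcf15 a dark column in the 3 infant libraries alone.

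Related genes were set beside these from 5 lists. Of 25 genes of uptake and storage tested, 1 rose and 3 fell (12%) in mature adult against infant libraries, beside 1.42% and 13.9% of all genes. Lipe, hormone-sensitive lipase, rose to 9, 8 and 10 peaks in mature adult libraries, against 6, 7 and 6 in infant libraries (0.98 scaled, limma adjusted p = 0.000322). Lipg, endothelial lipase, fell to 0 peaks in all mature adult libraries, against 4, 3 and 4 in infant libraries. Vldlr, a receptor for triglyceride-rich particles, fell to 1, 1 and 3 peaks, against 12, 10 and 12, and Lrp1, another lipoprotein receptor, to 2, 3 and 2, against 11, 10 and 11. Lipg and Lrp1 also fell in young adult against infant libraries. The other 21 did not pass on both scales.

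Of 21 genes of mitochondrial oxidation tested, 1 fell (4.76%) and none rose in mature adult against infant libraries, beside 13.9% and 1.42% of all genes. Slc25a20, the carnitine carrier, had 1 peak in each adult library against 2 in each infant library. Of 21 lipid regulators tested, Klf15 alone fell, the same share, with 4, 5 and 5 peaks in mature adult against 9, 10 and 10 in infant libraries, and none rose. Rxra, the partner of PPARγ, fell in young adult against infant libraries, with 13, 16 and 13 peaks against 28, 22 and 23. Its mature adult libraries had 14, 14 and 12.

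Of 18 prostaglandin genes tested, 3 fell (16.7%) and none rose in mature adult against infant libraries, beside 13.9% and 1.42% of all genes. They were Ptgs2, the inducible cyclooxygenase, with 1, 0 and 0 peaks in mature adult against 3, 2 and 5 in infant libraries, Ptger2, a prostaglandin E receptor, with 0, 0 and 0 against 4, 1 and 2, and Hpgds, a prostaglandin D synthase, with 1, 0 and 0 against 4, 3 and 3. Of 13 genes of lipid synthesis, 3 fell (23.1%) and none rose, beside the same 13.9% and 1.42%. They were Acaca, with 1, 1 and 1 peaks in mature adult against 2, 4 and 3 in infant libraries, and the fatty acid desaturases Fads1 and Fads2, each with 2, 2 and 2 against 6, 4 and 5 for Fads1 and 7, 6 and 4 for Fads2. In the 4 lists without a gene that rose, 0 to 1 genes were higher on both scales at an unadjusted p under 0.05. The lists were drawn up with earlier results of these data known.

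Alveolar macrophages and adipocytes are known for using Cd36, Fabp4, Lpl and Pparg as well. Of 6 alveolar macrophage markers found, Itgax, Cd68 and Ear2 had no peak in any library, and the list summed to 5 to 6 peaks in infant, 5 to 8 in young adult and 4 to 7 in mature adult libraries. Of 6 adipocyte markers, Retn had none, and the list summed to 19 to 25, 12 to 14 and 8 to 11. Of the 3 tested, 1 fell (33.3%) in mature adult against infant libraries, beside 13.9% of all genes. It was Lep, with 3, 2 and 2 peaks in mature adult against 11, 10 and 10 in infant libraries. These Lep peaks are part of the adipocyte sum. The adipocyte sum moved in the direction of unscaled Fabp4 and Pparg numbers and against those of Cd36 and Lpl, and its part in them was not tested. These sums are unscaled, and the endothelial sum given above was lower in adult libraries too. Alveolar epithelial markers summed to 14 to 18, 6 to 10 and 5 to 8, with Sftpc at 0, and leukocyte markers to 6 to 7, 5 to 8 and 5 to 6, with Itgam at 0. The 6 markers of lung capillary endothelium summed to 72 to 75, 59 to 69 and 54 to 66, and none of them rose or fell on both scales, also at an unadjusted p under 0.05.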

How the data were processed

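ATAC-seq was run on sorted mouse lung endothelial cells at 3 ages, with 3 libraries per age. Per the file headers, the deposited lists hold the chromosome, start and end of each peak and no reads, score or other value. Per the submitters' processing notes, the authors used cutadapt, Bowtie2 and Picard with build mm10, without versions. How peaks were called, at what threshold, and whether cut sites were shifted is not given in the sources used here. An interval filled up to 14 rows, and 31.0% to 38.9% of intervals were repeated, so each was counted once. Whether starts count from 0 or 1 is not stated, so positions are as deposited.

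Genes were the 21887 protein-coding RefSeq genes of GRCm38.p6, which is mm10, without strand, exons or introns, so regions are given as inside or outside a gene body. Where bodies nest, the shortest took the peak. Peaks per gene were tested as log2(number + 0.5), scaled to the library's total, with limma 3.58.1 (trend) in R 4.3.3 over all 9 libraries, for the 14510 genes averaging 1 or more peaks. The added 0.5 understates changes of genes with few peaks. Widths were tested as log2 bp centred on the library median at 41144 regions listed in all 9 libraries, and without centring. Benjamini-Hochberg adjustment ran over all features with a threshold of 0.05. The fit was tested on simulated data. Tables and figures were made with Python 3.11.15, pandas 2.3.3, numpy 2.4.6 and matplotlib 3.10.9.

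The genes and lists were chosen with earlier results of these data known. Named were all 10 genes, regions listed in all libraries of infants or of adults alone, regions passing the width test with or without centring, the widest region per gene, and list genes passing on both scales; other regions were chosen after their values were seen. The alternatives were other scalings, a pseudocount of 1, equal lists, rows as deposited, peaks within 10 kb, other width measures, left-out libraries and a replicate block. Summed peak width per gene, and the left-out libraries on equal lists and, for Tcf15, on unscaled numbers, were added after seeing the data.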

Additional observations from a re-analysis of the deposited data

How the results depend on the processing

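The fall of Tcf15 in mature adult against infant libraries passed under every alternative fitted to all 9 libraries, and with each library left out on scaled numbers (-0.52 to -0.40) and unscaled numbers. The higher scaled values of Cd36, Lpl, Fabp5, Acadm and Hpgd passed with each library left out and were lost on unscaled numbers, where Fabp5 in mature adult against infant libraries turned to -0.11. Depth is unknown, so peak numbers are limited by an unmeasured factor. The cause of each dependence was not tested.

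The count of genes called was 5137 in young adult against infant, 6426 in mature adult against infant and 136 in mature adult against young adult libraries. In that order, equal lists gave 1399 and 2292 in the comparisons with infants, unscaled numbers 2686 in the young adult one, and rows as deposited 2370 in the young adult one and 83 between adults. Between adults, the replicate block gave 67, a fit of those ages alone 78, and leaving out young adult 3 and mature adult 1 gave 575. Leaving out 1 library gave 4467 to 5494, 5377 to 6968 and 100 to 433, the last without young adult replicate 3. Regions called on width numbered 2137, 8553 and 52. The replicate block gave 1281, 5183 and 6, and leaving out 1 library 848 to 2440, 2411 to 10567 and 7 to 270. Between adults, the widest peak gave 89, regions with exactly 1 peak 25, and leaving out both libraries that stand apart 275. Deviations of same-numbered libraries from their age means had correlations across genes of -0.17 to 0.17, and those of differently numbered libraries -0.23 to 0.29. With 3 libraries per age this cannot settle whether the replicate numbers pair the libraries. The blocked change of Tcf15 in mature adult against infant libraries was -0.47 (limma adjusted p = 0.0223).

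Of the regions at the 10 genes, equal lists placed 5 in infants alone and 8 in adults alone, and assignment within 10 kb left 2 in adults alone and 24 in all libraries. Leaving out 1 library gave 3 to 7, 4 to 5 and 45 to 48. The 8 in adults alone on equal lists include chr3:10009432-10009701 and chr3:10059734-10060036 at Fabp5, which full lists place in all 9 libraries. Infant peaks there were 251 to 265 bp wide, under the narrowest width kept in infants (299 to 354 bp). That count is therefore not a count of regions absent from infant lists.

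Signs turned mainly in changes near 0. Without 1 library, Pparg ran from -0.56 to 0.018 in mature adult against infant and from -0.17 to 0.31 between adults, Meox2 from -0.21 to 0.059 in young adult against infant, -0.13 to 0.19 in mature adult against infant and -0.094 to 0.29 between adults, Pdk4 from -0.042 to 0.24 in mature adult against infant, and between adults Cd36 from -0.22 to 0.15 and Fabp5 from -0.073 to 0.062. Equal lists gave 0.044 for Cd36 and -0.17 for Fabp5 between adults, and -0.27 for Meox2 and -0.12 for Pdk4 in mature adult against infant libraries. Unscaled numbers gave -0.11 for Fabp5 and -0.0038 for Hpgd between adults, and -0.42 for Meox2 and -0.40 for Pdk4 in mature adult against infant libraries. Rows as deposited gave -0.22 for Fabp5 and -0.13 for Meox2 between adults, 0.022 for Meox2 in young adult against infant, and -0.11 for Meox2 and -0.25 for Pdk4 in mature adult against infant libraries. Within 10 kb, Cd36 was 0.0023 and Fabp5 -0.39 (limma adjusted p = 0.0181) between adults, and Tcf15 0.036 and Pdk4 0.28 (adjusted p = 0.00031) in young adult against infant libraries. Pdk4 had 1 peak inside or within 10 kb in every library, so its change there comes wholly from the scaling. Without both libraries that stand apart, Cd36 was 0.17 and Meox2 -0.18 between adults, Meox2 0.051 in young adult against infant, and Meox2 -0.13 and Pdk4 -0.042 in mature adult against infant libraries. Summed peak width gave Meox2 0.092 in young adult against infant, -0.047 in mature adult against infant and -0.14 between adults, and Pdk4 -0.062 in mature adult against infant and -0.0096 between adults. Without centring, the widest Cd36 region was -0.0020 in young adult against infant and -0.030 in mature adult against infant libraries, and the Hpgd region at chr8:56410103-56411456 was -0.037 in young adult against infant libraries. In young adult against infant libraries the Pdk4 start region changed by -0.19 without centring, -0.0063 with exactly 1 peak per library and -0.047 without both libraries that stand apart, and ran from -0.047 to 0.059 without 1 library, as the Meox2 region at chr12:37050480-37051139 did from -0.091 to 0.045.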
